A study of Homo sapiens with 6 samples.

Results

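The HOX genes are the homeobox transcription factor genes that lie in 4 clusters of the human genome, HOXA on chromosome 7, HOXB on chromosome 17, HOXC on chromosome 12 and HOXD on chromosome 2. Their accessibility was followed in the human melanoma line A375 after addition of recombinant HMGA1 (reHMGA1). HMGA1 is a chromatin protein that binds the minor groove of AT-rich DNA through AT hooks. Members were all regions of the deposited tables that carried the name of a HOX gene, whatever their distance to its start, each region counted once. There were 134 such regions among the 226920 regions of the series: 34 at HOXA, 45 at HOXB, 37 at HOXC and 18 at HOXD. They were named for 35 of the 39 HOX genes in the RefSeq annotation. Of these regions, 7 were named for 2 HOX genes, and 15 also carried a name other than that of a single HOX gene. HOXA2, HOXA9, HOXB5 and HOXD4 gave their name to no region under this rule, which leaves out the joint name HOXA10-HOXA9 (3 rows in each comparison).

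ATAC-seq, which reads open DNA through insertions of the Tn5 transposase, was run on cells treated with reHMGA1 for 2 h, on cells treated for 18 h and on untreated (mock) cells, with 2 libraries in each of the 3 groups. All groups were the same cell line, and the labels name no vehicle for the mock cells and no dose of the protein. The files give comparisons between groups and 1 mean signal per region over the 6 libraries, so neither the depth nor the values of a single library are known here, and errors are the standard errors (SE) of the deposited fit. Libraries of a group are called biological replicates in the labels without mention of separate cultures. Their p-values therefore reflect how far the libraries at hand differ, which may in part be technical. Of the melanocyte lineage markers, the genes of MITF, SOX10 and PMEL had a region within 1 kb of their start, with mean signals of 694, 63.8 and 298, whereas MLANA, TYR, DCT and TYRP1 had none. All 4 markers of undifferentiated melanoma (AXL, NGFR, SOX9 and EGFR) had one, with mean signals of 17.3 to 376, and so did 2 of 3 keratinocyte markers (KRT5 and KRT14), 1 of 3 fibroblast markers (PDGFRB) and none of the 2 endothelial and 3 immune markers.

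HOX proteins set positional identity along the body axis, and the order of the genes within a cluster follows the order of their domains along that axis. Genes of equal number in different clusters are paralogues: groups with low numbers act towards the head and those with high numbers towards the tail and in the distal limbs. Clusters are kept silent by Polycomb complexes or opened by Trithorax proteins such as KMT2A, and adult fibroblasts keep a part of the positional HOX pattern of their site of origin. HOX proteins bind DNA together with PBX and MEIS cofactors.

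The promoters of some HOX genes are shown because HMGA1 is known to bind AT-rich DNA. Promoter entries that did and did not overlap an accessible region could also be set side by side. RefSeq (GRCh38.p14) promoter entries were at hand for 20 HOX genes, in 27 entries of 300 bases each. HOXA5, which is central to the results, had no entry. The first 3 of the following promoters overlapped a HOX region and the last 2 overlapped no region of any name. Each is given as the 250 bases before the gene start, and capitals mark matches on either strand to the motif CCAAT (bound by NF-Y), to the TATA box motif TATAAA or to the joint PBX and HOX motif TGATTNAT. A CCAAT on the other strand is read as its reverse complement.
HOXA4 promoter (chr7:27130758-27131007, minus strand): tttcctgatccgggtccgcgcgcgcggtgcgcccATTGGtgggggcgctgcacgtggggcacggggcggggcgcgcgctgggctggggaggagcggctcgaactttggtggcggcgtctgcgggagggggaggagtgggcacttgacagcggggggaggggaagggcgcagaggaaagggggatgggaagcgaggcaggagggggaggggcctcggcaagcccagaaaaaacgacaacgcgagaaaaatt
HOXA13 promoter (chr7:27200092-27200341, minus strand): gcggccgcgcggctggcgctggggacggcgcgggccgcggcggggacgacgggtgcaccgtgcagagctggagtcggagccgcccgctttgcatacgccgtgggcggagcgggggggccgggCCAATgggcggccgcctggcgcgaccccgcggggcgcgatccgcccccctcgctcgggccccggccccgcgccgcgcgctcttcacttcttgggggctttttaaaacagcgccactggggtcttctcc
HOXD10 promoter (chr2:176116528-176116777, plus strand): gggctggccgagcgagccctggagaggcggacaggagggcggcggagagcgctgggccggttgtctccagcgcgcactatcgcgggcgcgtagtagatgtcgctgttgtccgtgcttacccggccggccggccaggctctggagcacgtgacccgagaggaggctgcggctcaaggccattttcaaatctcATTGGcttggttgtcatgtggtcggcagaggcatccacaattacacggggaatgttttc
HOXA2 promoter (chr7:27102684-27102933, minus strand): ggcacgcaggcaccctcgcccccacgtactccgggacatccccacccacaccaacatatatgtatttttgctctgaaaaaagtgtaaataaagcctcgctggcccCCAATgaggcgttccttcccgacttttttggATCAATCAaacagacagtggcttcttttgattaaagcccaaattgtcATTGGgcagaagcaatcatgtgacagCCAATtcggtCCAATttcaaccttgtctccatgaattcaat
HOXA9 promoter (chr7:27165538-27165787, minus strand): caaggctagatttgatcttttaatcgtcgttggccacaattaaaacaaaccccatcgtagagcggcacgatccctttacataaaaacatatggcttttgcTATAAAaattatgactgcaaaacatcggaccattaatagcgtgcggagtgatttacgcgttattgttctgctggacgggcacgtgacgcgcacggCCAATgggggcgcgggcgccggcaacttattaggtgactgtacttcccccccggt

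Over the whole entry, A and T made up 36.7% of the HOXA4 promoter, 23.7% of that of HOXA13 and 40.0% of that of HOXD10. The promoters of HOXA2 and HOXA9, without a region, held 53.7% and 52.0%. The promoter of HOXD4 held 52.7% and overlapped no region. These promoters lie towards the AT-rich end of those without a region, whose shares ran from 26% (HOXD13) to 56.3% (an entry of HOXA3). The promoters of HOXD8 and HOXA7, also without a region, held 28.3% and 32%. An entry of HOXA3 with a region held 49.3%, so the shares with and without a region overlapped widely. Of the 27 entries, 8 overlapped a region and had a median AT share of 38.5%, and 19 did not and had 45.0%. Among all 35114 promoter entries the medians were 35.3% for the 17950 that overlapped a region and 50.3% for the 17164 that did not, a difference in the same direction. The longest unbroken run of A or T had a median of 8 bases in HOX promoters and 6 in all promoters. CCAAT, on either strand and counting overlapping matches, was found in 18 of the 27 HOX entries (66.7%) and in 34.6% of all entries. TATAAA was found in 5 (18.5%, against 11.5% of all) and TGATTNAT in 2 (7.41%, against 2.82% of all), those of HOXA2 and HOXD11. Several entries are alternative starts of HOXA3 or HOXA10. The entries of HOXC4 and HOXC5 are the same stretch of DNA, with CCAAT and without a region, and both are counted. A match of letters is a description, not a binding site.

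The HOX regions carried more signal than most regions of the genome. Their median mean signal was 96.0, against 39.3 over all regions, and 83 of 134 (61.9%) had enough signal to be tested at 2 h against mock, against 38.0% of all regions. By cluster the medians were 60.2 at HOXA, 137 at HOXB, 103 at HOXC and 96.5 at HOXD. The 12 regions that covered a HOX start had a median of 313, the 16 others within 1 kb had 175, the 55 at 1 to 10 kb had 95.4, and the 51 beyond 10 kb had 49.0. Over all regions the same classes had 377, 66.5, 36.0 and 37.3. Of the 134 regions, 75 touched the span of a HOX gene, 25 touched another RefSeq gene only, and 34 lay in no gene span.

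**Figure D1:**
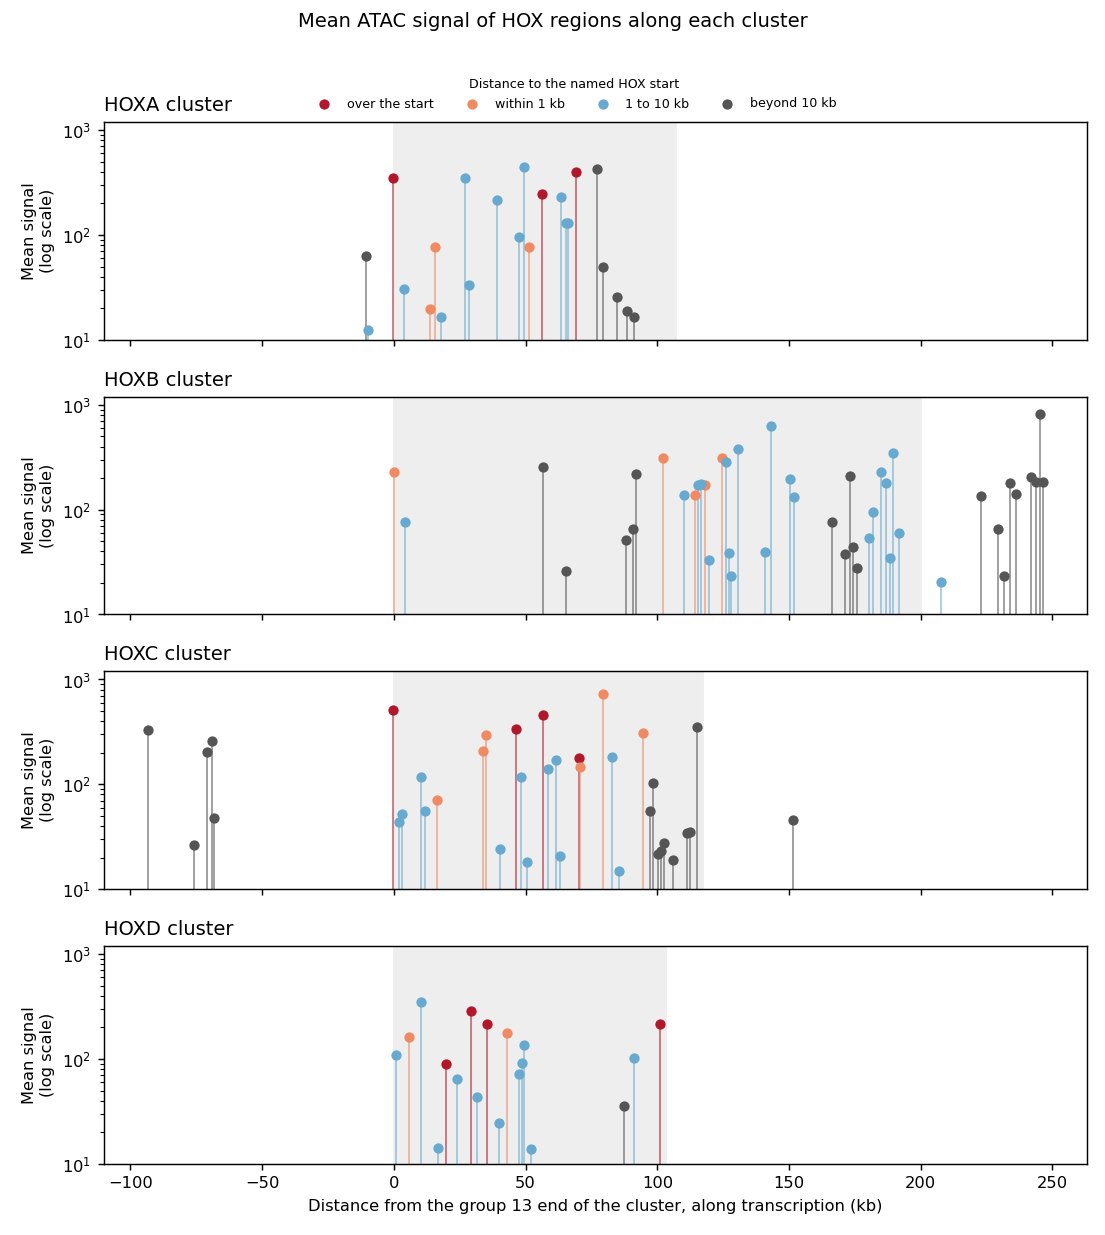
Mean signal of the HOX regions reported here (log scale, deposited mean over the 6 libraries) against its distance in kb from the end of the cluster that holds the group 13 gene, along the direction of transcription; colours give the distance to the named start and grey bands the span of the HOX genes. The drawn regions covering a start reach 90.2 to 516, while the region with the highest signal of all, at 813, lies outside the HOXB genes.

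The most accessible region of the HOXB, HOXC and HOXD clusters covered no start. At HOXB it lay 47.2 kb from the start of HOXB1, which patterns the hindbrain and the facial nerve, with a mean signal of 813 (chromosome 17, 48483345 to 48483846, in no gene span, between HOXB1 and SKAP1). At HOXC it was a region named for HOXC4 and HOXC6, 966 bases from the HOXC4 start, with 725 (chromosome 12, 54017896 to 54018397). At HOXD it lay 1.77 kb from the start of HOXD12, a limb gene, with 349 (chromosome 2, 176097458 to 176097959). These regions rank from the 92.7 to the 98.9 percentile of all regions by mean signal.

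A region within 1 kb of the start was found for 25 HOX genes. Their median signal was 248, against 338 over the 13667 start regions of all gene names, whose quartiles were 116 and 565. High in the order stood HOXC4 (725) and HOXC13 (516), a gene needed for hair and nails. It ended with HOXA6 (76.4), HOXA11 (76.2), a forelimb and uterus gene, and HOXC12 (71.0). HOXD1, an anterior gene, had 217, the 10 central ones (groups 4 to 8) a median of 213 and the 13 posterior ones (groups 9 to 13) a median of 287. These are means over all 6 libraries without an error, so the order of close neighbours, such as HOXB9 and HOXB6 at 314 each, cannot be told. The other 10 genes had their nearest region farther away, from HOXB2 (1.04 kb, mean signal 229) to HOXD3 (13.5 kb, mean signal 35.8). HOXC6 had the strongest of these, the region it shares with HOXC4 (725, at 2000 bases from the HOXC6 start), followed by HOXB3 with 627 at 2.62 kb, and HOXB1 had 60.1 at 5.91 kb.

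**Figure D2:**
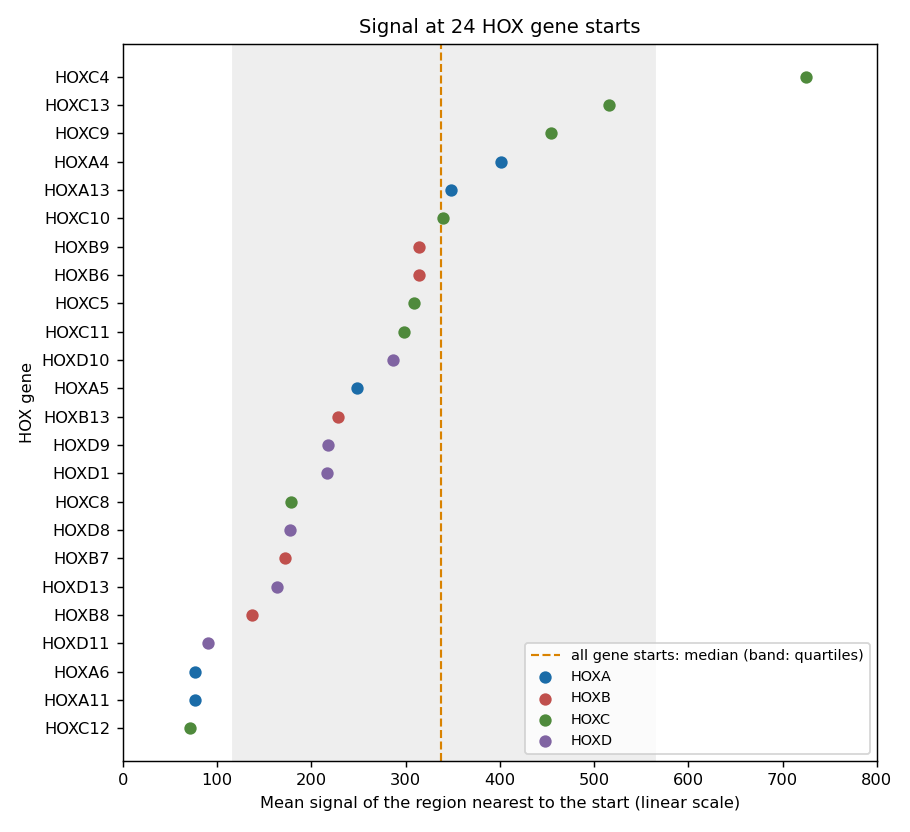
Mean signal (linear scale) of the region nearest to the start of HOX genes that had one within 1 kb and are reported here, coloured by cluster, with the median (dashed line, 338) and quartiles (band) over all gene starts. Most HOX starts lie inside the band; HOXC4 lies above it, and HOXD11, HOXA6, HOXA11 and HOXC12 below.

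The comparison of 2 h with mock addressed the early response to the protein. No HOX region was called: 0 of 83 tested HOX regions passed an adjusted p of 0.05 in the authors' deposited table (DESeq2), beside 1.28% of all tested regions (0.856% higher and 0.421% lower). An unadjusted p under 0.05 was given to 5 (6.02%), 1 higher and 4 lower, beside 10.0% of all (4.33% higher and 5.68% lower). There, 57 of the 83 (68.7%) lay below 0, against 62.2% of all tested regions, and their median log2 fold change was -0.09, against -0.06 over all tested regions. The start of HOXA5, a central gene that patterns the lung and the axial skeleton, came nearest to a call. The authors' deposited table gave it -0.53 ± 0.16 (SE; adjusted p = 0.0635, DESeq2; chromosome 7, 27143558 to 27144059, within HOXA5 and the longer span of HOXA3). Its mean signal of 248 and both fold changes imply normalised signals of 273 in mock, 189 at 2 h and 282 at 18 h, if the 3 groups weigh equally in the mean.

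A region 5.36 kb from the start of HOXA3, a thymus and parathyroid gene, had the lowest value of all tested HOX regions at 2 h. It stood at -0.61 ± 0.23 in the authors' deposited table (SE; unadjusted p = 0.00696, adjusted p = 0.1997, DESeq2; mean signal 131). Of the HOXA regions 17 of 18 were below 0 at 2 h, with a median of -0.15, in the authors' deposited table, where 62.2% of all tested regions were below 0. HOXB (22 of 32 below 0, median -0.07), HOXC (10 of 20, median -0.01) and HOXD (8 of 13, median -0.07) were nearer to the median of all tested regions there. Start regions in general were below mock at 2 h. Of the 25 HOX starts 18 (72.0%) were below 0 with a median of -0.13, against 87.6% and -0.11 for the start regions of all genes in the authors' deposited table. The differences between clusters were not tested.

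The ends of the range in the other clusters were single regions. At HOXB the highest was 287 bases from the start of HOXB7, which is known to activate FGF2 in melanoma cells, at 0.46 ± 0.19 (SE; adjusted p = 0.285, DESeq2) in the authors' deposited table. The lowest there was a HOXB3 region at 19.99 kb, at -0.42 ± 0.27 (adjusted p = 0.663, DESeq2). At HOXC the authors' deposited table had HOXC12 highest at 0.56 ± 0.29 (SE; adjusted p = 0.524, DESeq2), 131 bases from its start. The region shared by HOXC4 and HOXC6, the strongest of the cluster, was the lowest, at -0.27 ± 0.09 (adjusted p = 0.150, DESeq2). At HOXD the authors' deposited table ranged from -0.33 ± 0.18 (adjusted p = 0.544, DESeq2) over the start of HOXD9, a limb gene, to 0.29 ± 0.23 (adjusted p = 0.766, DESeq2) at 9.81 kb from HOXD1. None of these passed the test. For 80 of the 83 regions the 95% interval of the deposited fold change lay within 2-fold in either direction.

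**Figure D3:**
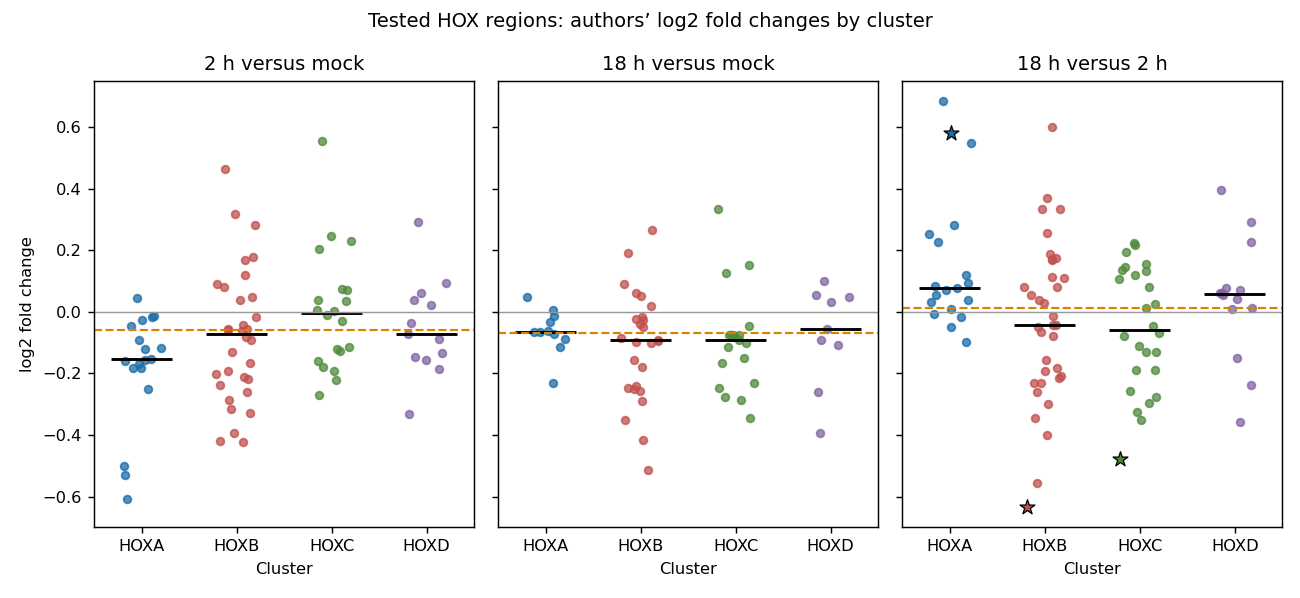
The authors' log2 fold changes of tested HOX regions (points) in each comparison, by cluster, with cluster medians (black bars) and the median of all tested regions (dashed); stars mark regions with an adjusted p under 0.05. Stars appear in the comparison of 18 h with 2 h alone, 1 above and 2 below 0, and 17 of 18 HOXA points lie below 0 at 2 h against mock.

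The comparison of 18 h with mock addressed changes after the long exposure. Again no HOX region was called: 0 of 65 tested HOX regions passed in the authors' deposited table (DESeq2), beside 0.121% of all tested regions (0.00542% higher and 0.116% lower). An unadjusted p under 0.05 was found for 4 (6.15%), all lower, beside 7.89% of all (0.569% higher and 7.32% lower). The median was -0.08, against -0.07 over all tested regions there, and 50 of the 65 (76.9%) lay below 0, against 69.5% of all. For all 65 the 95% interval of the deposited fold change lay within 2-fold. The HOXA5 start was at 0.05 ± 0.15 (SE; adjusted p = 0.990, DESeq2) in the authors' deposited table, the highest HOXA value of that comparison. The lowest HOXA value was that of the HOXA13 start, a gene of digits and genital tract, at -0.23 ± 0.13 (adjusted p = 0.727, DESeq2).

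All 4 regions with an unadjusted p under 0.05 at 18 h lay beyond 10 kb and below 0. Of these, 3 stood together at 45.7 to 48.3 kb from HOXB1, on the side of SKAP1. The one at 48.3 kb (chromosome 17, 48482206 to 48482707) was the lowest, at -0.51 ± 0.18 (SE; adjusted p = 0.299, DESeq2) in the authors' deposited table. The strong region at 47.2 kb had -0.29 ± 0.09 (adjusted p = 0.203, DESeq2), and that at 45.7 kb had -0.42 ± 0.18 (adjusted p = 0.475, DESeq2; both from the authors' deposited table). The next region towards HOXB1, at 44.0 kb, had -0.25 ± 0.17 (adjusted p = 0.814, DESeq2) there. The remaining one of the 4 lay 70.8 kb from HOXC13, at -0.34 ± 0.17 (adjusted p = 0.621, DESeq2) in the authors' deposited table. The highest values within HOXC, HOXB and HOXD were small in this comparison. HOXC4 at 19.9 kb had 0.34 ± 0.24, HOXB2 at 2.95 kb had 0.27 ± 0.18 and the HOXD10 start 0.10 ± 0.14 in the authors' deposited table (SE). The lowest HOXD value was -0.39 ± 0.21 at 6.91 kb from HOXD8.

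The comparison of 18 h with 2 h tests the difference between both exposures and shares the 2 h libraries with the first comparison and the 18 h libraries with the second, as those share the mock libraries. By DESeq2, 3 of 94 tested HOX regions passed in the authors' deposited table (3.19%), beside 3.48% of all tested regions, a share near the background. The HOXA5 start rose and 2 distal regions, named for HOXB1 and HOXC13, fell. The higher one compares with 0.498% of all tested regions called higher and the lower pair with 2.98% called lower. There were 10 HOX regions with an unadjusted p under 0.05 (10.6%, against 11.6% of all), 5 higher (3.44% of all) and 5 lower (8.18% of all).

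The start of HOXA5 rose 1.49-fold at 18 h relative to 2 h, with a log2 fold change of 0.58 ± 0.16 (SE; adjusted p = 0.0135, DESeq2) in the authors' deposited table. This is the region that lay lowest among HOX starts at 2 h, and its 18 h value did not differ from mock by more than its SE. The HOXB1 region at 48.3 kb fell 1.55-fold, with -0.63 ± 0.18 (SE; adjusted p = 0.0184, DESeq2), in the authors' deposited table. It had 0.12 ± 0.17 at 2 h and -0.51 ± 0.18 at 18 h against mock there, and the implied signals were 197 in mock, 214 at 2 h and 138 at 18 h. The HOXC13 region at 92.9 kb (chromosome 12, 53845352 to 53845853, inside the span of the uncharacterised LOC105378250) fell 1.39-fold, with -0.48 ± 0.14 (SE; adjusted p = 0.0307, DESeq2), in the authors' deposited table. It had 0.25 ± 0.14 at 2 h and -0.23 ± 0.15 at 18 h against mock there, with implied signals of 324 in mock, 384 at 2 h and 275 at 18 h. Its call was lost (adjusted p = 0.0618) when low-signal regions were kept in the adjustment.

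**Figure D4:**
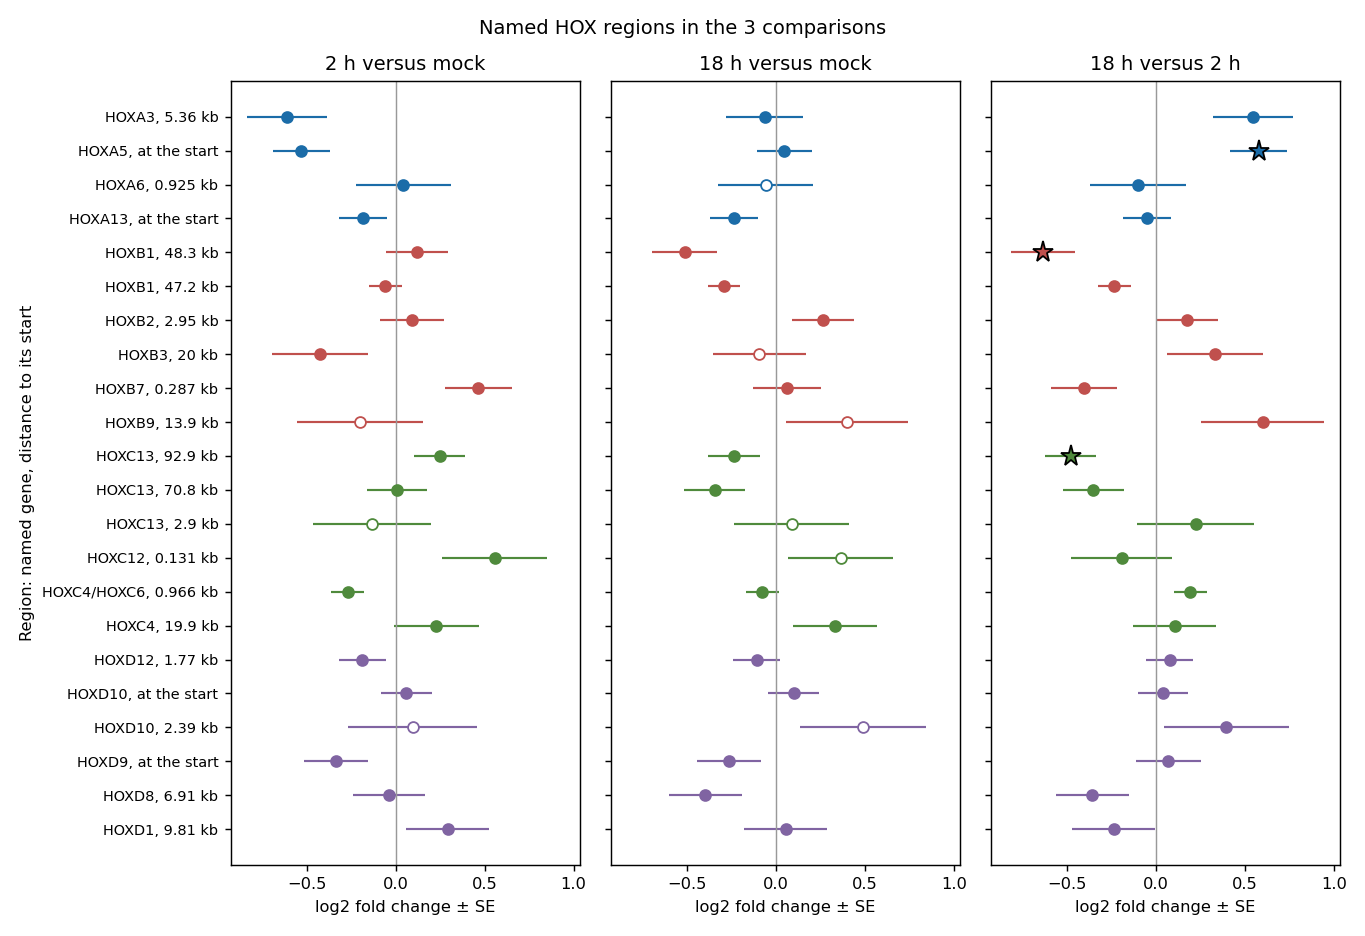
Authors' log2 fold changes with SE (bars) of the named HOX regions in the 3 comparisons, labelled by gene and distance to its start and coloured by cluster; stars are called regions and open circles regions not tested. The HOXA5 start is at -0.53 at 2 h against mock, 0.05 at 18 h against mock and 0.58 at 18 h against 2 h.

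The HOX regions next described lie near the called ones and did not pass the test. Next to the HOXB1 region that fell, on the side of HOXB1, those at 47.2, 45.7 and 44.0 kb had -0.23 ± 0.09, -0.21 ± 0.18 and -0.23 ± 0.17 (SE; adjusted p = 0.174, 0.809 and 0.738, DESeq2) in the authors' deposited table. On its other side, a region named for SKAP1, 42.6 kb from the SKAP1 start, was called lower. It had -0.89 ± 0.13 (SE; adjusted p = 5.66e-09, DESeq2) in the authors' deposited table, after 0.66 ± 0.13 at 2 h against mock. Beside HOXA5, the nearest HOXA3 region, at 3.45 kb from the HOXA3 start and with a mean signal of 230.1, had 0.08 ± 0.16 (SE; adjusted p = 0.961, DESeq2) in the authors' deposited table. The next one, at 5.36 kb, had 0.55 ± 0.23 (adjusted p = 0.217, DESeq2) there, and the HOXA6 region at 925 bases had -0.10 ± 0.27, the lowest tested HOXA value. Near the HOXC13 region that fell, the one at 70.8 kb had -0.35 ± 0.17 (adjusted p = 0.391, DESeq2) and that at 68.8 kb had 0.02 ± 0.15 in the authors' deposited table. The HOXC13 start itself, a strong region with a mean signal of 516, had 0.13 ± 0.12 (adjusted p = 0.827, DESeq2).

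HOXB9, expressed in posterior trunk tissue, and the region of HOXC4 and HOXC6 were lowest at 2 h of the 3 groups, as HOXA5 was, but passed no test. That order is not particular to them, and other HOX starts such as HOXC10 and HOXD9 had it by their implied signals. Start regions of all genes had medians of -0.11 at 2 h and -0.05 at 18 h against mock, and 0.06 at 18 h against 2 h. The HOXB9 region 80 bases from the start had -0.39 ± 0.14 at 2 h against mock (SE; adjusted p = 0.177, DESeq2) and 0.37 ± 0.14 at 18 h against 2 h (adjusted p = 0.157, DESeq2) in the authors' deposited table. The region of HOXC4 and HOXC6 had 0.19 ± 0.09 (adjusted p = 0.374, DESeq2) at 18 h against 2 h there. HOXB7 ran the other way, at -0.40 ± 0.19 (adjusted p = 0.333, DESeq2) in the authors' deposited table. At HOXB the highest was a HOXB9 region at 13.9 kb, 0.60 ± 0.35 in the authors' deposited table. HOXD held no region with an unadjusted p under 0.05 in any of the 3 comparisons. Its values at 18 h against 2 h ranged from -0.36 ± 0.21 at HOXD8 (6.91 kb) to 0.40 ± 0.35 at HOXD10 (2.39 kb) in the authors' deposited table.

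Median log2 fold changes at 18 h against 2 h were 0.08 over 19 HOXA regions, -0.04 over 35 HOXB, -0.06 over 26 HOXC and 0.06 over 14 HOXD regions in the authors' deposited table, with 0.04 over all 94 HOX regions and 0.01 over all tested regions. Of the 12 regions covering a HOX start 10 lay above 0 and 2 (16.7%) below, with a median of 0.07. Over all such tested regions of the genome 26.55% lay below 0, and the median was 0.06. For 89 of the 94 the 95% interval of the deposited fold change lay within 2-fold. At the median SE of 0.20 the interval reaches 0.39 to either side, a 1.31-fold change. This is not the limit of a call, which rests on the adjusted p and needs a larger change at that SE. The SE also differs between regions.

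**Figure D5:**
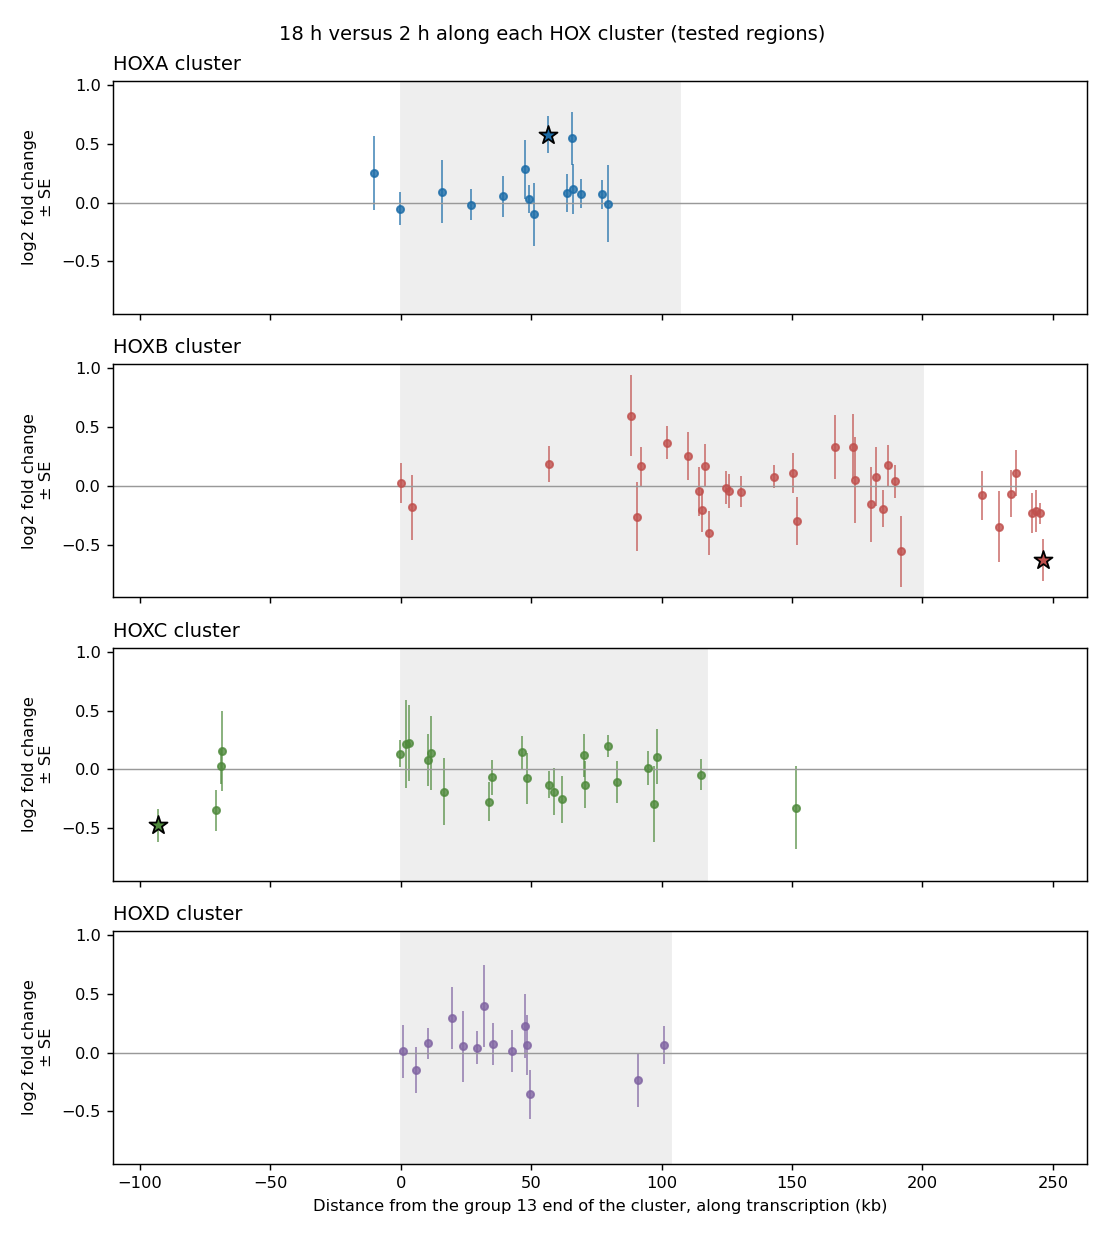
Authors' log2 fold change with SE (bars) of the tested HOX regions reported here at 18 h against 2 h, against its distance in kb from the group 13 end of the cluster; grey bands are the spans of the HOX genes and stars called regions. The called HOXA5 start lies inside its cluster, while the called HOXB1 and HOXC13 regions lie outside theirs.

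Other genes of HOX regulation were read at all their regions. For 18 h against mock, DESeq2 called 0 regions in each of 6 lists (authors' deposited table), beside 0.121% of all tested regions. Those with an unadjusted p under 0.05 were 3 of 52 at the PBX, MEIS and PKNOX cofactors, 8 of 84 at Polycomb genes, 0 of 18 at activators and H3K27 demethylases, 0 of 10 at CTCF and cohesin genes, 2 of 46 at upstream inducers and 3 of 19 at cluster neighbours, beside 7.89% of all tested regions. At 2 h against mock, 1 of 118 Polycomb regions fell, that of PHC2 at 7.01 kb (-0.36 ± 0.10, SE; adjusted p = 0.0211, DESeq2), and 1 of 38 neighbour regions rose, in the authors' deposited table. Over all tested regions there, 0.421% were called lower and 0.856% higher, and the unadjusted p was under 0.05 for 7 of the 118 and 5 of the 38, beside 10.0% of all. No region of the other 4 lists was called there by DESeq2, and an unadjusted p under 0.05 was held by 9 of 91 cofactor, 1 of 35 activator and demethylase, 1 of 19 CTCF and cohesin and 9 of 71 inducer regions. The neighbour region that rose was named for SKAP1, which borders the HOXB cluster at its HOXB1 end, and lay 42.6 kb from the SKAP1 start. It rose by 0.66 ± 0.13 at 2 h against mock (SE; adjusted p = 0.000143, DESeq2) and fell by 0.89 ± 0.13 at 18 h against 2 h (adjusted p = 5.66e-09, DESeq2) in the authors' deposited table.

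At 18 h against 2 h, 2 of 118 cofactor regions fell in the authors' deposited table (DESeq2; 1.69%, beside 3.48% of all tested regions). Over all tested regions there, 2.98% were called lower and 0.498% higher. One was named for PBX4 (-0.60 ± 0.12, adjusted p = 8.94e-05, in the authors' deposited table). Of 141 Polycomb regions 3 fell (2.13%) in the authors' deposited table. Among them were 2 named for JARID2, which guides PRC2 to its targets. They lay far from its start, at 183 kb (-0.62 ± 0.12) and 404 kb (-0.72 ± 0.20). None of 43 regions of activators and demethylases was called there by DESeq2, 2 having an unadjusted p under 0.05. Of 25 cohesin and CTCF regions 1 fell (4%), at 26.3 kb from the RAD21 start (-1.25 ± 0.32, mean signal 52.4). Among upstream inducers, 2 of 89 regions rose and 2 fell (4.49% called in either direction). The start of RARB, a retinoic acid receptor gene, rose by 0.54 ± 0.17 (SE; adjusted p = 0.0479, DESeq2) and a region 99.8 kb from EGR2, a hindbrain regulator in mouse, by 0.64 ± 0.16 (adjusted p = 0.00494, DESeq2) in the authors' deposited table. Of 49 neighbour regions 4 fell (8.16%) in the authors' deposited table. Only 6 of the 24 genes on the neighbour list had a region. The 2 of SKAP1 were the one above and one at 254 kb from its start (-1.09 ± 0.28). The 2 of SKAP2, which borders HOXA, lay at 4.3 kb (-0.80 ± 0.18) and 231 kb (-1.34 ± 0.34) from its start. Beside 11.6% of all tested regions, an unadjusted p under 0.05 was found there for 9 of 118 cofactor, 17 of 141 Polycomb, 3 of 25 CTCF and cohesin, 9 of 89 inducer and 8 of 49 neighbour regions.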

How the data were processed

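ATAC-seq libraries of 3 groups were compared. Per the submitters' processing notes, the build was hg38, bcl2fastq 2.17 was used and DESeq2 is listed with no version; for aligner, peak caller, counter and Tn5 shift, the sources used here name nothing (not given in the sources used here). Values deposited are a mean signal per region (counts divided by size factors, by the authors), a log2 fold change with SE, the Wald statistic (a score, by the authors) and the deposited p-value with its adjusted p. The deposited tables hold 0 columns of single libraries, so edgeR or other count tests could not be run, and the authors' test was used, with one spread over all 6 libraries. Depth is unknown.

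Repeat rows of a region were removed (141 HOX rows to 134 regions). An adjusted p of exactly 1, given under a mean signal of 56.2 in the table for 2 h, 101 in that for 18 h (both against mock) or 41.7 in the third one, was taken as not tested. Distances to gene starts are the authors'. Gene spans and promoters come from RefSeq GRCh38.p14; exons were not analysed here. Coordinates are as deposited and a start may differ by 1 base. Implied group signals take the 3 groups as equal in weight. Named regions were every called HOX region and, per cluster, the highest and lowest of each comparison and the strongest by mean signal; others named as neighbours, as near a call, or by an unadjusted p under 0.05 were chosen after their values were seen. Some named regions are not reported here, singly or in the plots of single named regions or positions. Members and lists were chosen with earlier results of these data known. Alternatives were another threshold, no signal filter, centring on the median or within 20 bins of mean signal, and other member rules; recentring was tested on simulated data. Python 3.11.15, pandas 2.3.3 and scipy 1.17.1 were used.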

Additional observations from a re-analysis of the deposited data

Results flagged for a closer look

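The effects of 2 h and 18 h against mock differed at 3 HOX regions by the authors' test of 18 h against 2 h (DESeq2, authors' deposited table). The log2 fold change of that difference was 0.58 at the start of HOXA5, -0.63 at 48.3 kb from HOXB1 and -0.48 at 92.9 kb from HOXC13. With 2 libraries in a group and no value of a single library in the files, it was not tested whether 1 library carries any of these values.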

How the results depend on the processing

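The 0 calls at 2 h against mock became 1 with an adjusted p under 0.1, the HOXA5 start (lower); they stayed at 0 without a signal filter, with both centrings, for members within 10 kb and for every region inside the cluster spans. The 0 calls at 18 h against mock stayed at 0 under these 6 alternatives. The 3 calls at 18 h against 2 h were 3 with the looser threshold and both centrings and 2 without a signal filter, where the HOXC13 call was lost (adjusted p = 0.0618). They were 1, the HOXA5 start, among members within 10 kb and 1 among all regions inside the cluster spans, since both calls that fell lie outside. Median log2 fold changes ranged over the alternatives from -0.09 to -0.03 at 2 h against mock and from -0.08 to -0.01 at 18 h against mock. At 18 h against 2 h they ranged from 0.00 to 0.04. Against mock the values nearest to 0 came from the centrings, which take out the shift of all tested regions. These moves were smaller than the median SE, but that is the error of a single region and not of a median. Of 144 values of named regions under alternatives 141 kept direction and call; besides HOXC13, the strong HOXB1 region at 47.2 kb changed sign at 2 h against mock under both centrings (-0.06 as deposited, then 0.00 and 0.04) and passed the test in none. The median tested region lay at -0.06, -0.07 and 0.01 in the 3 comparisons. No paired analysis was possible because the tables hold no values of single libraries; leaving out libraries was not run for the same reason.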

Other observations

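Regions below the signal limit were not tested by the authors. One of them is given here, picked after its values were seen. A HOXA11 region at 2.91 kb (mean signal 16.6) had 1.46 ± 0.62 at 2 h against mock and 1.27 ± 0.62 at 18 h against mock (SE; unadjusted p = 0.0181 and 0.0401, DESeq2) in the authors' deposited table.

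Inside the cluster spans 12 further regions carried names other than a single HOX gene, among them 5 of RP11-834C11.12 at HOXC, 4 of PRAC1 and PRAC2 at HOXB and 1 of EVX2 at HOXD. Over the 3 comparisons, 0 of the 12 reached an unadjusted p of 0.05, and the lowest adjusted p was 0.775 (DESeq2, authors' deposited table).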
